A study of Rana omeimontis with 12 samples.

Results

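The members described here are the unigenes (assembled transcripts) of the tadpole of the wood frog Rana omeimontis that could be followed in both liver and tail under T3, the active thyroid hormone. A unigene entered if it reached at least 1 FPKM (fragments per kilobase of transcript, scaled to the total of mapped fragments) in 3 or more of the 6 libraries of each tissue, and 14251 of the 56172 unigenes in the table did. At the edge of this rule, 1621 passed with exactly 3 libraries in the tissue where they were scarcer, and 1897 that reached the level in 2 libraries there were left out. The T3 change of each tissue was set against that tissue's own median change, and the question asked was which unigenes moved the same way in both organs and which moved in opposite ways. Pro-metamorphic tadpoles of Gosner stages 30 to 31, a staging scale of frog development, had been kept for 3 days in 10 nM T3 or in the vehicle DMSO, which is labelled CK. The groups were T3 liver and CK liver, T3 tail and CK tail, with 3 libraries each and 12 in all. All were hatched and reared in the laboratory from clutches collected in the wild, food was supplied throughout, feeding activity differed between the treatments according to the study's methods, and the sources used here do not say whether tadpoles were pooled or whether a liver and a tail library came from the same animal. P-values therefore measure the spread between these libraries, which may be technical.

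Thyroid hormone drives the whole of frog metamorphosis, but each organ gives its own answer to it. The tail is resorbed, its muscle, skin and notochord being digested by proteases and lysosomal enzymes, while the liver persists and is remodelled from a larval to an adult program that includes the urea cycle and adult blood proteins. T3 binds nuclear receptors that switch on direct response genes, some of them shared by many tissues, while other responses differ between organs.

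The libraries of 1 tissue and treatment correlated at r = 0.9318 to 0.9705 over the tested unigenes on the scale of log2(FPKM + 1). No 2 columns were identical. Transcripts of the exocrine pancreas held 0.634%, 0.0241% and 0.0441% of the summed FPKM of T3 livers, against 8.13%, 10.1% and 0.0404% in control livers, so control livers 1 and 2 stand apart and the counts of classes and lists that changed are also given without them. Hepatocyte markers held 6.42% to 9.16% in T3 livers and 2.9% to 4.27% in control livers, but 0.00543% or less in any tail. Serum albumin unigenes carried that difference, the highest with 22262, 14540 and 24739 FPKM in T3 livers, against 3021, 1390 and 2801 FPKM in control livers, whereas apolipoprotein A-I had 2047, 1771 and 2175 FPKM in T3 livers, against 9207, 7632 and 11943 FPKM in control livers. Without the 50 most abundant unigenes the hepatocyte shares overlapped, at 0.713% to 1.27% in T3 livers and 0.567% to 0.907% in control livers (exact permutation p = 0.2). Skeletal muscle markers held 2.12% to 3.21% in T3 tails and 2.85% to 5.79% in control tails (two-sided exact permutation p = 0.2), against 0.00997% or less in any liver, and without the 50 most abundant unigenes the tail shares lay apart, at 0.647% to 0.94% in T3 tails and 1% to 2.43% in control tails (exact permutation p = 0.1, the smallest possible). In such bulk tissue fewer cells of a type and less RNA per cell cannot be told apart.

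In the liver 947 unigenes rose and 757 fell (6.65% and 5.31% of those tested), and in the tail 1223 rose and 1521 fell (8.58% and 10.7%), at an adjusted p under 0.05 in limma with Benjamini-Hochberg adjustment over all 14251. Called in both tissues were 296 unigenes that rose in both (2.08%), 295 that fell in both (2.07%), 101 that rose in the liver and fell in the tail (0.709%) and 26 that fell in the liver and rose in the tail (0.182%). Calls within the gene lists below are read against these shares of all tested unigenes. Of the unigenes that rose in the liver 31.3% also rose in the tail and 10.7% fell there. Of those that fell in the liver 39% also fell in the tail and 3.43% rose there. Counted from the tail, 24.2% of the rises were shared by the liver and 2.13% opposed, and 19.4% of the falls were shared and 6.64% opposed. Most calls were thus made in 1 tissue alone, although a missing call in the other does not show that a unigene did not change there. Over all tested unigenes the liver and tail changes correlated at Pearson r = 0.352 and Spearman rho = 0.296, as a description over unigenes, which are not replicates.

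**Figure D1:**
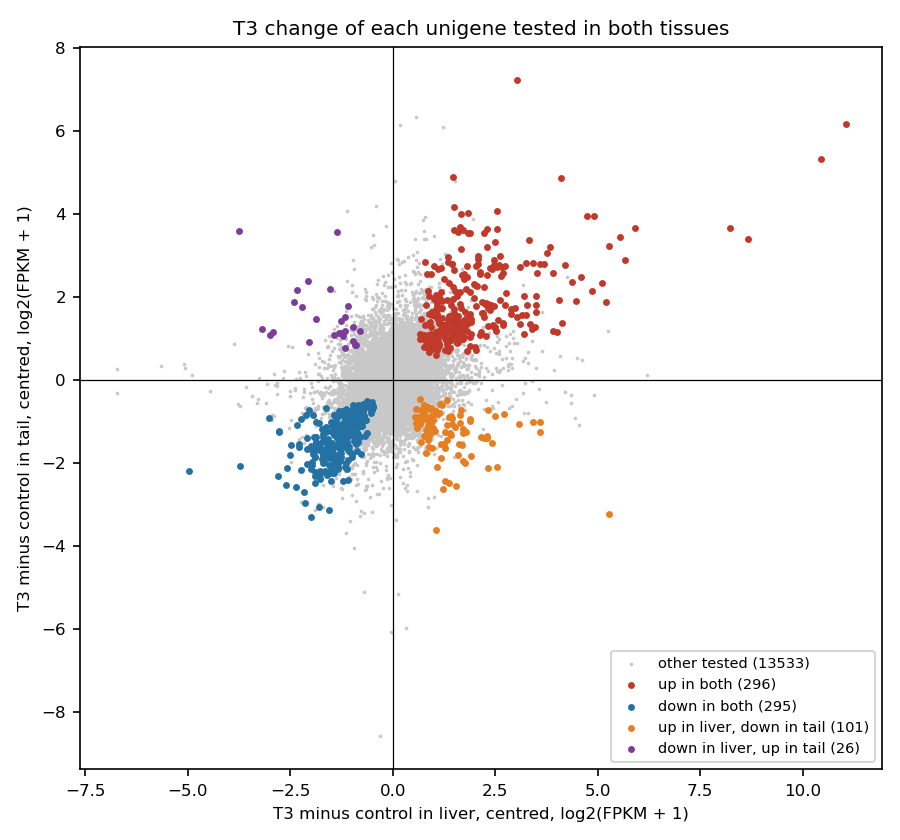
Centred T3 change of each of the 14251 tested unigenes in liver (x axis) and tail (y axis), in log2(FPKM + 1) units. Colours mark the 296 unigenes called up in both tissues, the 295 down in both, the 101 up in liver and down in tail and the 26 down in liver and up in tail. The shared classes fill the upper right and lower left, and 3 globin unigenes with a medium-chain acyl-CoA hydrolase reach furthest to the right.

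The contrast between the tissues, (T3 minus CK in liver) minus (T3 minus CK in tail), passed the same threshold for 1064 unigenes (7.47%), of which 663 were higher in the liver (4.65%) and 401 lower (2.81%). It passed for all 127 unigenes of the opposite classes, which were chosen by the same values, for 37 of the 296 shared rises and for 5 of the 295 shared falls. Shared rises had a median size of 1.59 (liver) and 1.56 (tail), and shared falls of 1.25 and 1.275. A unigene has the same SE in both tissues in this fit, so calls in both ask for similar sizes. The like medians are thus a description, and single unigenes could differ. The T3 and control libraries did not overlap in either tissue for 271 of the 296 shared rises, 256 of the 295 shared falls, 75 of the 101 and all 26 of the opposite unigenes, against 17.0% of all tested unigenes. The classes were called from these same libraries, so nothing is read from that difference. The filter also favoured some members: 61 of the 296, 37 of the 295, 7 of the 101 and 7 of the 26 reached 1 FPKM in a tissue in the 3 libraries of 1 treatment and in none of the other, against 4.45% of all tested unigenes. Such a unigene could enter only by being higher in that treatment, so its values in that tissue are a description. Its p-value there and the p-value of its tissue contrast are no support. Among those named below this holds for thyroid hormone receptor beta, the bZip protein, hemoglobin alpha-B, nicotinamide N-methyltransferase-like, quinone dehydrogenase 1, folliculin-interacting protein 2 and purine nucleoside phosphorylase-like in both organs, for adult beta globin, hemoglobin alpha-C, ovostatin-like, synaptophysin-like 2 and the phytanoyl-CoA hydroxylase-interacting protein-like unigene in the liver, and for the cocaine esterase-like unigene, cytochromes P450 2W1 and 2C8, clustered mitochondria protein, type III deiodinase, solute carrier family 3 member 1 and alcohol dehydrogenase 4 in the tail. Others, not counted here, had 3 libraries of 1 treatment and 1 of the other at 1 FPKM, so they too needed the higher treatment. Their p-values there are no support either. In the liver these included glycine amidinotransferase, Kruppel-like factor 9, cocaine esterase-like, prostaglandin reductase 1-like and resistin. In the tail they included the amidinotransferase, adult beta globin, beta-microseminoprotein-like, lipocalin, a putative methyltransferase and methyltransferase 3A-like.

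Centring set the balance of the opposite classes. Before it, the liver had a median change of -0.29 and the tail of 0.32, so that typical unigenes lost in one organ and gained in the other on the deposited scale. Without centring 312 unigenes rose in both, 349 fell in both, 35 rose in the liver and fell in the tail, and 206 did the reverse. Of the calls in 1 tissue, 630 were then higher and 2186 lower in the liver, 2931 higher and 798 lower in the tail, and the tissue contrast had 318 higher and 2728 lower in the liver. All unigenes of the 4 classes kept their signs in both tissues without centring. Leaving it out shifts a change only by these medians, too little to turn changes large enough to be called, so the kept signs support nothing. Of the original unigenes 224, 185, 35 and 26 were then still of their class. Without control livers 1 and 2, which leaves a lone control liver assumed to vary like the other libraries, the counts were 124, 136, 31 and 9, and 120, 106, 30 and 9 of the original unigenes were still of their class.

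Genes known to respond to thyroid hormone mostly rose. Of 11 tested unigenes of the thyroid hormone response list 6 rose in both tissues and 1 fell in the liver and rose in the tail. In the liver 6 rose and 1 fell, and in the tail 10 rose. Thyroid hormone receptor beta, the receptor isoform that T3 itself induces, was listed at 6.39, 3.84 and 3.15 FPKM in T3 livers, against 0 in every control liver (adjusted p = 2.08e-05). In the tail it had 11.2, 11.4 and 8.88 FPKM in T3 tails, against 0.8, 0.75 and 0.15 FPKM in control tails (centred log2 change ± SE 2.58 ± 0.26, adjusted p = 3.02e-05), and the groups did not overlap. The thyroid hormone induced bZip protein, a transcription factor first found in the resorbing frog tail, had 16.9, 24.9 and 7.08 FPKM in T3 livers, against 0.06, 0.1 and 0.14 FPKM in control livers (4.11 ± 0.38, adjusted p = 1.16e-05). It stood at 56, 34.3 and 23.5 FPKM in T3 tails, against 0, 0 and 0.03 FPKM in control tails (4.87 ± 0.38, adjusted p = 3.93e-06). No control library passed 0.14 FPKM and no T3 library was under 7.08 FPKM, and the contrast between the tissues was -0.76 ± 0.53, adjusted p = 0.464.

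Kruppel-like factor 9, a direct target of the T3 receptor, had 15.1, 32 and 15.9 FPKM in T3 livers, against 0.99, 2.25 and 0.8 FPKM in control livers (3.49 ± 0.42, adjusted p = 0.000115). It stood at 73.9, 73.5 and 38 FPKM in T3 tails, against 28.5, 9.66 and 10.9 FPKM in control tails (1.64 ± 0.42, adjusted p = 0.0151). Its control tails were already above its control livers, and the tissue contrast of 1.85 ± 0.59, adjusted p = 0.0797 missed the threshold. Nuclear receptor corepressor 2, which represses target genes with the unliganded receptor, rose by 1.30 in the liver (adjusted p = 0.00446) and 0.97 in the tail (adjusted p = 0.0163). A DNA (cytosine-5)-methyltransferase 3A-like unigene, of a family that methylates DNA anew, rose by 1.05 and 0.83 (adjusted p = 0.0213 in the liver and adjusted p = 0.0438 in the tail). Nuclear receptor corepressor 1 differed between the organs: it had 10.4, 9.49 and 9.54 FPKM in T3 livers, against 11.7, 10.7 and 16.1 FPKM in control livers (-0.05 ± 0.20, adjusted p = 0.918), but 18, 18.1 and 16.7 FPKM in T3 tails, against 6.43, 5.84 and 5.19 FPKM in control tails (1.13 ± 0.20, adjusted p = 0.0021), with a contrast of -1.18 ± 0.29, adjusted p = 0.0243. Matrix metalloproteinase-9TH, a T3-induced gelatinase of the resorbing tail, had 853, 556 and 432 FPKM in T3 tails, against 9.2, 6.31 and 3.4 FPKM in control tails (6.10 ± 0.59, adjusted p = 2.12e-05). It had 31.2, 5.62 and 7.57 FPKM in T3 livers, against 13.9, 3.45 and 2.98 FPKM in control livers, groups that overlap (1.22 ± 0.59, adjusted p = 0.211), and the contrast passed (-4.89 ± 0.83, adjusted p = 0.00268). Sonic hedgehog, induced by T3 in the frog intestine, passed in neither tissue (0.54 and -0.40). With control livers 1 and 2 left out there were 4 shared rises on the list, and the liver call of nuclear receptor corepressor 2, both calls of the methyltransferase and the contrast of corepressor 1 were lost.

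The largest shared rises were in globins, by the liver change. The adult beta globin unigene, a subunit of the oxygen carrier of red blood cells, had 2745, 1353 and 2819 FPKM in T3 livers, against 0, 0.3 and 0.57 FPKM in control livers (11.04 ± 0.51, adjusted p = 2.58e-08). It had 471, 166 and 81.5 FPKM in T3 tails, against 2.03, 0.56 and 0.85 FPKM in control tails (6.19 ± 0.51, adjusted p = 5.64e-06). No control library passed 2.03 FPKM and no T3 library was under 81.5 FPKM. Hemoglobin subunit alpha-C had 2097, 769 and 1909 FPKM in T3 livers, against 0.21, 0.32 and 0.34 FPKM in control livers (10.43 ± 0.53, adjusted p = 4.37e-08). It reached 362, 132 and 64.1 FPKM in T3 tails, against 2.97, 0.78 and 2.5 FPKM in control tails (5.34 ± 0.53, adjusted p = 2.58e-05). Hemoglobin subunit alpha-B had 313, 182 and 306 FPKM in T3 livers, against 0.2, 0 and 0 FPKM in control livers (8.23 ± 0.46, adjusted p = 1.02e-07). It stood at 52.3, 17.5 and 8.69 FPKM in T3 tails, against 0.3, 0.16 and 0.63 FPKM in control tails (3.66 ± 0.46, adjusted p = 0.000186). The rise was larger in the liver for all 3, by 4.86, 5.09 and 4.57 (adjusted p = 0.0011, 0.0011 and 0.00086). All 3 passed the liver filter through the T3 livers alone, so these contrasts are a description and their p-values no support. Other globin unigenes moved differently. Hemoglobin, alpha 2 fell by 3.25 in the liver (adjusted p = 4.79e-05) with a tail change of 0.06 (adjusted p = 0.936), and 1 of the Hemoglobin subunit alpha-3 unigenes rose in the tail alone (4.09, adjusted p = 5.11e-05), while it had 2.75, 3.65 and 1.45 FPKM in T3 livers, against 4.79, 6.99 and 16.5 FPKM in control livers (-1.12 ± 0.44, adjusted p = 0.119). The summed share of all red blood cell markers was 0.393% to 0.639% in T3 livers and 0.542% to 1.12% in control livers (exact permutation p = 0.4), and 0.369% to 0.611% in T3 tails and 0.12% to 0.374% in control tails (exact permutation p = 0.2). Without the 50 most abundant unigenes, which leaves out 1 of the 15 markers in the liver, the liver share was 0.265% to 0.506% in T3 livers and 0.112% to 0.212% in control livers, the other way round and with no overlap (exact permutation p = 0.1, the smallest possible). The marker list itself holds hemoglobin alpha-C and alpha-B, so its share is not a measure apart from their rises. The part of red blood cell number in the globin changes was not tested.

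Enzymes that act on lipids and foreign compounds followed. Fatty acyl-CoA hydrolase, medium chain, a carboxylesterase-like enzyme, had 903, 579 and 1465 FPKM in T3 livers, against 2.18, 2.32 and 1.02 FPKM in control livers (8.66 ± 0.31, adjusted p = 2.59e-09). It had 21.6, 21.4 and 27.9 FPKM in T3 tails, against 0.8, 0.82 and 1 FPKM in control tails (3.39 ± 0.31, adjusted p = 1.24e-05). The liver rise exceeded the tail rise by 5.27 (adjusted p = 1.14e-05). The hydrolase reached 1 FPKM in only 1 control tail and so entered through the T3 tails. Its tail and contrast p-values are therefore no support. A cocaine esterase-like unigene, of a family that hydrolyses esters, had 40.9, 44.9 and 63.4 FPKM in T3 livers, against 1.77, 0.86 and 0.61 FPKM in control livers (4.91 ± 0.24, adjusted p = 3.51e-08). It was listed at 17.9, 18.8 and 18.6 FPKM in T3 tails, against 0 in each control tail (adjusted p = 3.49e-07). Cytochrome P450 2W1, an oxidase of lipids, had 133, 159 and 40.6 FPKM in T3 livers, against 9.75, 4.81 and 0.35 FPKM in control livers (4.75 ± 0.62, adjusted p = 0.000233). It reached 16.5, 16.6 and 27.2 FPKM in T3 tails, against 0.03, 0.03 and 0.15 FPKM in control tails (3.95 ± 0.62, adjusted p = 0.000925). All of these kept the groups apart in both organs.

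Nicotinamide N-methyltransferase-like, whose enzyme methylates nicotinamide with S-adenosylmethionine, rose by 5.29 in the liver and 3.24 in the tail (adjusted p = 2.59e-08 and adjusted p = 3.59e-06), and a putative methyltransferase by 3.85 and 3.20 (adjusted p = 4.19e-06 and adjusted p = 2.4e-05). Prostaglandin reductase 1-like, which inactivates prostaglandins and leukotrienes in mammals, had 18.2, 13.2 and 46 FPKM in T3 livers, against 1.65, 0.77 and 0.99 FPKM in control livers (3.76 ± 0.39, adjusted p = 3.48e-05). It stood at 14.4, 16.6 and 26.3 FPKM in T3 tails, against 1.15, 1.18 and 0.36 FPKM in control tails (3.08 ± 0.39, adjusted p = 0.000202). Ovostatin-like, of the alpha-2-macroglobulin family of protease traps, rose by 3.32 and 3.39 (adjusted p = 0.00414 and adjusted p = 0.00266), and resistin, a small secreted cysteine-rich protein, by 3.25 and 2.83 (adjusted p = 0.00162 and adjusted p = 0.00301). T3 liver 2 had 1.42 FPKM of ovostatin-like, against 31.2 and 11.9 FPKM in the other T3 livers. The liver calls of these last 2 were lost without control livers 1 and 2.

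Some polyamine enzymes rose in both organs. Polyamines are small cations made from ornithine that growing cells need. A list of 14 tested unigenes of polyamine synthesis and turnover was written after the values had been seen and so supports nothing by its count: 9 rose in both tissues, from 6 assembly clusters, 1 fell in the tail, and their list had a median change of 1.92 in the liver and 1.90 in the tail, against 0 over all tested unigenes by construction. Ornithine decarboxylase 1, the first enzyme of the pathway, had 126, 92 and 41.2 FPKM in T3 livers, against 31.3, 21.5 and 27.9 FPKM in control livers (1.82 ± 0.42, adjusted p = 0.0127). It reached 308, 255 and 160.3 FPKM in T3 tails, against 40.6, 31.6 and 14.7 FPKM in control tails (2.76 ± 0.42, adjusted p = 0.000684), with no overlap in either organ. Hepatic arginase, which makes ornithine and urea from arginine, had 1912, 1579 and 901 FPKM in T3 livers, against 201, 379 and 375 FPKM in control livers (2.48 ± 0.44, adjusted p = 0.00233). It stood at 106, 86.2 and 55.6 FPKM in T3 tails, against 11, 12.7 and 3.11 FPKM in control tails (2.89 ± 0.44, adjusted p = 0.000677). Diamine acetyltransferase 1, which marks polyamines for export or oxidation, had 605, 1104 and 782 FPKM in T3 livers, against 241, 278 and 208 FPKM in control livers (2.03 ± 0.24, adjusted p = 0.000109). It had 524, 564 and 403 FPKM in T3 tails, against 149.5, 94.9 and 106 FPKM in control tails (1.78 ± 0.24, adjusted p = 0.000331). The tissue contrast of none of the 14 passed. In the absence of control livers 1 and 2 the list had 4 shared rises, and the liver calls of arginase and ornithine decarboxylase 1 were lost.

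**Figure D2:**
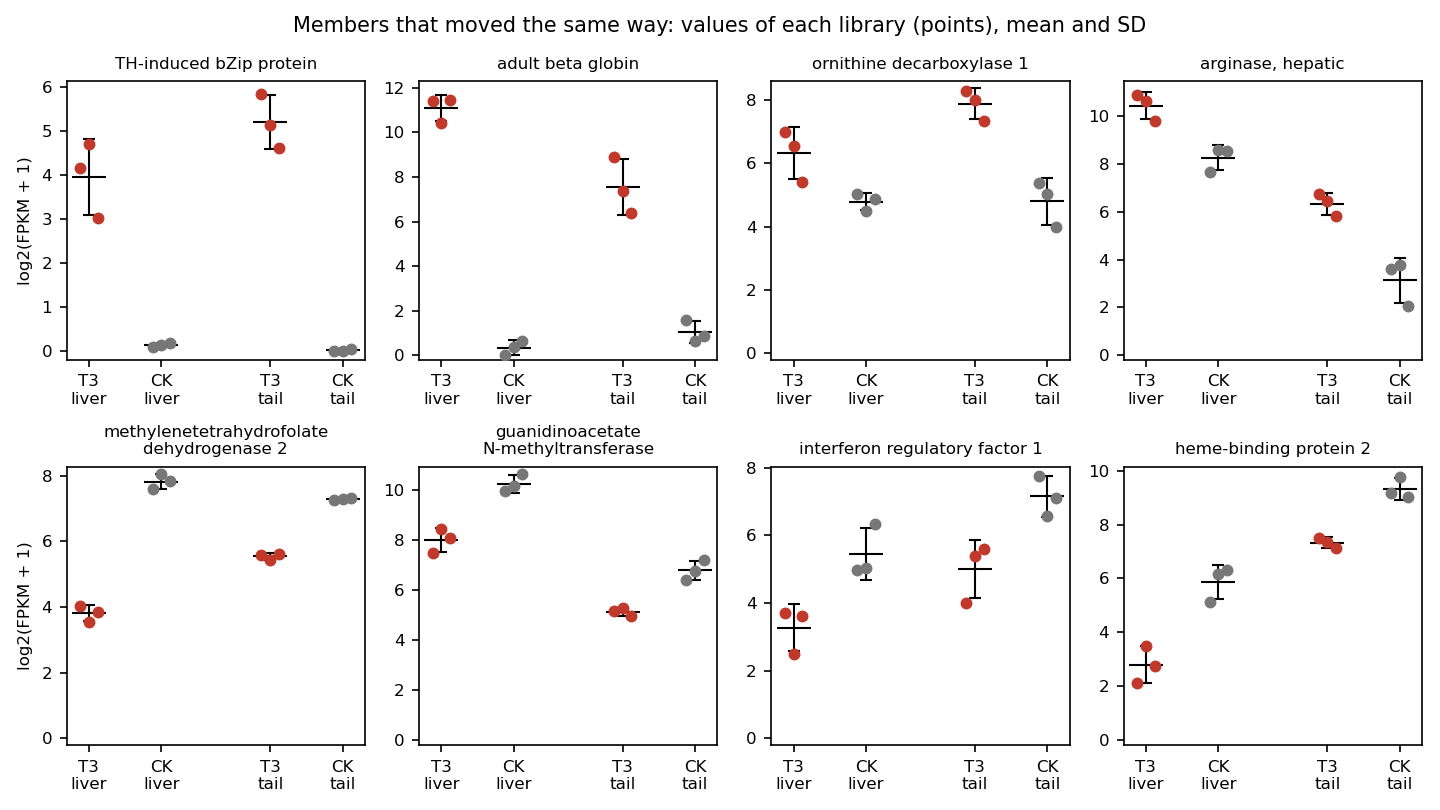
Value of each library, as log2(FPKM + 1), for 4 unigenes that rose in both tissues (upper row) and 4 that fell in both (lower row), with T3 (red) left of the DMSO control CK (grey) in liver and then tail, and black bars for mean and SD (n = 3). The T3 points lie above the control points in both tissues in the upper row, and below them in both tissues in the lower row.

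Matrix, transport and secretory genes were among the other shared rises. Collagens, the fibrous proteins of the matrix, had 5 shared rises among 21 tested unigenes and medians of 1.07 in the liver and 0.80 in the tail. Collagen alpha-1(XII), found along collagen I fibres, had 6.32, 4.96 and 8.73 FPKM in T3 livers, against 2.26, 2.44 and 2.05 FPKM in control livers (1.50 ± 0.24, adjusted p = 0.00109). It reached 229, 358 and 261 FPKM in T3 tails, against 19.3, 15.2 and 17.4 FPKM in control tails (3.62 ± 0.24, adjusted p = 7.33e-07). It rose more in the tail, with a contrast of -2.12 (adjusted p = 0.00173). Collagen alpha-2(I) rose by 1.49 and 1.25 and collagen III alpha 1 by 1.18 and 1.93 in liver and tail, and both liver calls were lost without control livers 1 and 2, when the list had 3 shared rises. Cathepsin L1-like, a lysosomal cysteine protease, had 1332, 1158 and 1038 FPKM in T3 livers, against 541, 588 and 674 FPKM in control livers (1.26 ± 0.35, adjusted p = 0.0307). It reached 5492, 4870.1 and 4149.9 FPKM in T3 tails, against 1485, 656 and 377 FPKM in control tails (2.43 ± 0.35, adjusted p = 0.000442). Its liver call, and that of cathepsin L 1a from the same assembly cluster, was lost without centring and without control livers 1 and 2.

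Solute carrier family 7 member 8, the light chain of an exchanger of neutral amino acids, had 39.9, 26.8 and 20.6 FPKM in T3 livers, against 12.7, 14.4 and 11.3 FPKM in control livers (1.37 ± 0.32, adjusted p = 0.0142). It stood at 576, 357 and 602 FPKM in T3 tails, against 109.7, 91.3 and 48.3 FPKM in control tails (2.34 ± 0.32, adjusted p = 0.000337). Amino acid transporters rose in 7 of 21 unigenes in the liver and 10 in the tail, but only this 1 was called up in both. Without control livers 1 and 2 these were 4 and 9, with none called up in both. Cytochrome P450 unigenes, 66 in all, had 10 shared rises, 4 shared falls and 1 opposite unigene of each kind, against 8, 2 and 1 that fell in the liver and rose in the tail without those livers. With 1 unigene per description there were 33, with 4 shared rises, 2 shared falls and 1 that rose in the liver and fell in the tail. The 10 are thus not a number of separate genes. Among them cytochrome P450 3A29-like had 845, 465 and 565 FPKM in T3 livers, against 162, 147 and 100.3 FPKM in control livers (2.46 ± 0.27, adjusted p = 5.87e-05). It stood at 145, 197 and 258 FPKM in T3 tails, against 54.5, 73.8 and 63.9 FPKM in control tails (1.28 ± 0.27, adjusted p = 0.00543). Insulin-induced gene 1, which holds back sterol synthesis in mammals, rose by 1.36 and 2.85, the chaperone 78 kDa glucose-regulated protein-like by 1.59 and 1.56, and fos-related antigen 2, a transcription factor of the AP-1 family, by 2.01 and 2.30 in liver and tail. The T3 and control livers overlapped for insulin-induced gene 1, and the liver calls of the transporter and of these last 3 were lost without control livers 1 and 2.

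Shared falls included enzymes of 1-carbon and creatine metabolism. Methylenetetrahydrofolate dehydrogenase 2, a mitochondrial enzyme that supplies 1-carbon units and is typical of growing cells, had 15.4, 10.7 and 13.5 FPKM in T3 livers, against 191, 262 and 228 FPKM in control livers (-3.72 ± 0.19, adjusted p = 4.49e-08). It reached 47.4, 41.9 and 48 FPKM in T3 tails, against 154, 156 and 159 FPKM in control tails (-2.07 ± 0.19, adjusted p = 1.65e-05). The replicates lay close together in each group, and the fall was larger in the liver by -1.65 (adjusted p = 0.00217). Guanidinoacetate N-methyltransferase, which completes creatine synthesis, had 176, 344 and 272 FPKM in T3 livers, against 983, 1133 and 1605 FPKM in control livers (-1.96 ± 0.27, adjusted p = 0.000392). It had 34.6, 38 and 29.9 FPKM in T3 tails, against 83.5, 108 and 144 FPKM in control tails (-1.97 ± 0.27, adjusted p = 0.000367). Glycine amidinotransferase, which starts creatine synthesis, had 0.26, 0.18 and 3.13 FPKM in T3 livers, against 62.7, 61 and 86.1 FPKM in control livers (-4.97 ± 0.69, adjusted p = 0.000358). It reached 0.1, 1.14 and 0.1 FPKM in T3 tails, against 1.37, 1.61 and 19.3 FPKM in control tails (-2.18 ± 0.69, adjusted p = 0.0397). Control tail 3 stood far above the other control tails, and the tail call was lost without centring and without control livers 1 and 2.

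Heme-binding protein 2 had 3.34, 10.2 and 5.72 FPKM in T3 livers, against 33.9, 69.8 and 78.8 FPKM in control livers (-2.79 ± 0.36, adjusted p = 0.000216). It reached 182, 163 and 138 FPKM in T3 tails, against 581, 873 and 519 FPKM in control tails (-2.31 ± 0.36, adjusted p = 0.000883). The G patch domain and KOW motifs protein, a splicing-associated RNA-binding protein, fell by 2.09 and 2.03 on the log2 scale in liver and tail (adjusted p = 0.000131 and adjusted p = 0.000197). The glycolytic enzyme glyceraldehyde-3-phosphate dehydrogenase had 576, 575 and 573 FPKM in T3 livers, against 2303, 2795 and 2632 FPKM in control livers (-1.87 ± 0.25, adjusted p = 0.00024), and 1784, 1744 and 2279.7 FPKM in T3 tails, against 3007, 3729 and 7229.8 FPKM in control tails (-1.49 ± 0.25, adjusted p = 0.00127), the 1 shared fall among 21 glycolysis unigenes, of which 3 fell in the liver (1 without control livers 1 and 2) and 13 in the tail. Fatty acid oxidation had 3 shared falls and 1 shared rise among 19 unigenes, and 2 and none without those livers. Its hydroxyacyl-CoA dehydrogenase had 84.1, 98.4 and 134 FPKM in T3 livers, against 395, 466 and 623 FPKM in control livers (-1.93 ± 0.22, adjusted p = 8.17e-05), and 67.6, 84.7 and 68.6 FPKM in T3 tails, against 119.5, 95.2 and 102 FPKM in control tails (-0.83 ± 0.22, adjusted p = 0.0189), and the tail call was lost without centring. Protein NYNRIN-like, whose smaller change was among the largest of the class, varied within groups, with 7.81 to 111.7 FPKM in T3 livers and 252.9 to 431.8 FPKM in control livers. Both its calls were lost without control livers 1 and 2, and its tail call without centring.

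Some shared falls were in genes of the interferon response, the antiviral and antigen-presenting program of vertebrate cells. Among the 12 leaders of the shared falls were interferon regulatory factor 1, an interferon-induced very large GTPase 1-like unigene, a C-X-C motif chemokine 10-like unigene and the ubiquitin ligase DTX3L. A proteasome beta type 7 unigene was also among these leaders, but its description does not name the interferon response. Interferon regulatory factor 1, a transcription factor of the response, had 12.2, 4.61 and 11.3 FPKM in T3 livers, against 30.4, 31.8 and 80.7 FPKM in control livers (-1.89 ± 0.49, adjusted p = 0.0238). It stood at 15.1, 40.8 and 47.4 FPKM in T3 tails, against 217, 94.5 and 137 FPKM in control tails (-2.47 ± 0.49, adjusted p = 0.00367). Both organs kept the T3 libraries below all controls. DTX3L, a partner of poly ADP-ribose polymerases, had 7.68, 6.26 and 8.8 FPKM in T3 livers, against 21, 25.3 and 101 FPKM in control livers (-1.90 ± 0.46, adjusted p = 0.0163). It stood at 16.8, 29.8 and 37 FPKM in T3 tails, against 81.7, 72 and 84.5 FPKM in control tails (-1.86 ± 0.46, adjusted p = 0.0125). Control liver 3 was the highest of the livers for both, and exocrine pancreas transcripts held 0.0404% of its summed FPKM.

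A list of 142 tested unigenes whose descriptions name interferon-linked proteins was written after these values had been seen, so its counts support nothing. It had 40 shared falls from 31 assembly clusters, no other class member, and 46 falls and no rise in the liver and 92 falls and no rise in the tail, with medians of -0.90 and -1.48. Once control livers 1 and 2 were left out there were 43 shared falls, and without centring 51, beside 3 that fell in the liver and rose in the tail. The 40 carry 10 distinct descriptions, among them poly ADP-ribose polymerase 14-like and interferon-induced very large GTPase 1-like, gene families between whose members the counting can split reads, so 40 is not a number of separate genes. Interferon regulatory factor 8, a factor of leukocytes, had 59, 21.4 and 42.7 FPKM in T3 livers, against 121, 106 and 125 FPKM in control livers (-1.31 ± 0.32, adjusted p = 0.0164). It had 30.3, 32.7 and 33.7 FPKM in T3 tails, against 113, 60 and 73.3 FPKM in control tails (-1.59 ± 0.32, adjusted p = 0.00375). Proteasome activator complex subunit 2, part of the interferon-induced cap of the proteasome, fell by 1.08 and 1.22 on the log2 scale (adjusted p = 0.0302 and adjusted p = 0.0111), the 1 class member among 18 unigenes of the proteasome list, whose wording does not take in the beta type 7 unigene. Its liver call was lost when control liver 1, control liver 3 or T3 liver 2 was left out. After control livers 1 and 2 were left out, the liver calls of interferon regulatory factor 8 and of the chemokine were lost.

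The leukocyte marker list moved with these genes. Its share was 0.033% to 0.0657% in T3 livers and 0.101% to 0.785% in control livers, and 0.0214% to 0.0346% in T3 tails and 0.0545% to 0.109% in control tails (exact permutation p = 0.1 in each, the smallest that 3 against 3 can give). Lysozymes made up most of it. The lysozyme C-2 unigene alone had 48.2, 1.56 and 1.05 FPKM in T3 livers, against 4252, 7415 and 14 FPKM in control livers, so it was high in the same control livers 1 and 2 that held the pancreas transcripts. The 8 other unigenes of the list, among them CD45 and macrophage mannose receptor, held 0.000781% to 0.00346% in T3 livers and 0.00337% to 0.00416% in control livers, and 0.00554% to 0.00911% in T3 tails and 0.00264% to 0.0083% in control tails, and 2 to 4 of them were at 0 in a library. These shares overlapped in both organs. The CD45 unigene, receptor-type tyrosine-protein phosphatase C, had centred changes of -1.07 in the liver and 0.16 in the tail (adjusted p = 0.0744 and 0.807).

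A minority of the genes of protein synthesis fell in both organs, by small steps. Translation factors had 4 shared falls among 55 unigenes, ribosome biogenesis 3 of 39 and cytosolic ribosomal proteins 7 of 117. Eukaryotic translation initiation factor 4B, which aids the unwinding of mRNA, had 75.3, 71.8 and 90.5 FPKM in T3 livers, against 220.1, 223 and 247 FPKM in control livers (-1.24 ± 0.19, adjusted p = 0.000901). It reached 182, 174 and 172 FPKM in T3 tails, against 292, 249 and 181 FPKM in control tails (-0.74 ± 0.19, adjusted p = 0.0163). Its tail groups overlapped, and the tail call was lost without centring. Probable ribosome biogenesis protein RLP24, needed for the large subunit in yeast, fell by 0.86 and 1.06 on the log2 scale (adjusted p = 0.00555 and adjusted p = 0.00111). Of the cytosolic ribosomal proteins 84 fell in the tail and 7 in the liver, with medians of -0.66 and -0.26, yet the tissue contrast passed for 1 alone. Without centring 20 fell in the tail and 65 in the liver, and with quantile normalization 32 and 38, so which organ holds the ribosomal falls turns on the scaling. Without control livers 1 and 2 no ribosomal protein and no ribosome biogenesis unigene was a shared fall, 1 translation factor was, and 67 ribosomal proteins fell in the tail. 40S ribosomal protein S16 and 60S ribosomal protein L12-like, shared falls here (tail changes -0.65 and -0.60), were at 0.02 and 0.01 in the tail with quantile normalization. Copper-zinc superoxide dismutase A and glutathione peroxidase 4, antioxidant enzymes, fell by 0.67 in the liver each and by 0.64 and 1.36 in the tail, with both liver calls lost without control livers 1 and 2 and the first tail call lost without centring.

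In the 101 unigenes that rose in the liver and fell in the tail, enzymes of amino acid breakdown recurred. NAD(P)H dehydrogenase quinone 1, a detoxifying reductase, had the widest split. It had 36.7, 31.6 and 50.6 FPKM in T3 livers, against 0, 0.6 and 0.26 FPKM in control livers (5.27 ± 0.43, adjusted p = 4.59e-06). It stood at 0.81, 0.78 and 0.67 FPKM in T3 tails, against 22, 18.3 and 4.21 FPKM in control tails (-3.23 ± 0.43, adjusted p = 0.000306). The T3 livers were above every tail, the control livers below every T3 tail, and the contrast was 8.50 ± 0.61, adjusted p = 3.7e-06. Glutaminase, liver isoform, which releases ammonia from glutamine, had 65.6, 64.3 and 35.6 FPKM in T3 livers, against 10.2, 12.2 and 14.9 FPKM in control livers (2.31 ± 0.29, adjusted p = 0.000159). It reached 2.02, 1.67 and 1.76 FPKM in T3 tails, against 12.9, 6.26 and 8.55 FPKM in control tails (-2.13 ± 0.29, adjusted p = 0.000323). Glycine dehydrogenase, of the glycine cleavage system, had 59.6, 77.1 and 36 FPKM in T3 livers, against 11.4, 12 and 8.95 FPKM in control livers (2.54 ± 0.34, adjusted p = 0.000255). It stood at 8.56, 5.45 and 2.76 FPKM in T3 tails, against 24.2, 17.7 and 19.1 FPKM in control tails (-2.10 ± 0.34, adjusted p = 0.00102). Control livers and control tails overlapped for glutaminase, and control livers were below control tails for glycine dehydrogenase. After T3 every liver was above every tail for both.

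Glutamate dehydrogenase 1, which frees ammonia from glutamate, had 863, 825 and 925 FPKM in T3 livers, against 253, 266 and 197 FPKM in control livers (2.16 ± 0.23, adjusted p = 4.79e-05). It had 182, 170.3 and 154 FPKM in T3 tails, against 273, 293 and 544 FPKM in control tails (-1.37 ± 0.23, adjusted p = 0.0015). Argininosuccinate synthase, a urea cycle enzyme, had 3779, 4086 and 5330.5 FPKM in T3 livers, against 1526, 2415 and 3135 FPKM in control livers (1.23 ± 0.28, adjusted p = 0.0108). It reached 4.82, 6.66 and 8.81 FPKM in T3 tails, against 32.8, 46.9 and 32.2 FPKM in control tails (-2.63 ± 0.28, adjusted p = 4.12e-05). Aspartate aminotransferase 1, which feeds nitrogen to the urea cycle as aspartate, had 117, 73.3 and 99.5 FPKM in T3 livers, against 21.7, 23.3 and 23.8 FPKM in control livers (2.29 ± 0.27, adjusted p = 8.53e-05). It stood at 17.5, 16.4 and 27.1 FPKM in T3 tails, against 36.4, 36.3 and 61.3 FPKM in control tails (-1.40 ± 0.27, adjusted p = 0.00282). Mitochondrial phosphoenolpyruvate carboxykinase 2, of gluconeogenesis, had 1744, 1119.5 and 1014 FPKM in T3 livers, against 256, 349.8 and 398 FPKM in control livers (2.22 ± 0.28, adjusted p = 0.000183). It had 32.6, 22.8 and 43.4 FPKM in T3 tails, against 82.7, 52.6 and 73.9 FPKM in control tails (-1.40 ± 0.28, adjusted p = 0.00402). Ammonium transporter Rh type B-A, a membrane channel for ammonia, had 81.6, 79.8 and 104 FPKM in T3 livers, against 26.4, 31.7 and 40.4 FPKM in control livers (1.70 ± 0.34, adjusted p = 0.00515). It reached 7.41, 8.33 and 8.96 FPKM in T3 tails, against 49.6, 29.1 and 14.6 FPKM in control tails (-1.96 ± 0.34, adjusted p = 0.00165). For all of these the T3 and control libraries lay apart in both organs.

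A list of 35 tested unigenes of amino acid breakdown and the urea cycle, written after the values had been seen, had 11 of this class, 2 shared rises, 18 rises and 1 fall in the liver, and 2 rises and 21 falls in the tail, with medians of 1.00 and -1.26. The tissue contrast passed for 23 of them, but the list was chosen for this pattern and its counts support nothing. With control livers 1 and 2 left out there were 7 of the class, and the liver calls of argininosuccinate synthase, the mitochondrial aspartate aminotransferase and the Rh transporter were lost. Without centring there were 9. Among the shared rises was alanine aminotransferase 2, so the direction was not common to all transaminases.

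Some other leaders of this class were expressed almost wholly in 1 organ. Beta-microseminoprotein-like, a small secreted protein, had 2011, 1512 and 1768 FPKM in T3 livers, against 463, 348 and 396 FPKM in control livers (2.42 ± 0.23, adjusted p = 1.57e-05). It stood at 0.73, 1.06 and 0.25 FPKM in T3 tails, against 3, 2.25 and 3.21 FPKM in control tails (-1.52 ± 0.23, adjusted p = 0.000663). Cytochrome P450 2K1-like had 1061, 887 and 1682 FPKM in T3 livers, against 455, 459.7 and 493 FPKM in control livers (1.60 ± 0.35, adjusted p = 0.00978). It reached 1.71, 4.63 and 3.22 FPKM in T3 tails, against 17.7, 9.89 and 6.14 FPKM in control tails (-1.82 ± 0.35, adjusted p = 0.00314). An alpha skeletal muscle actin-like unigene, of the muscle thin filament, was the reverse, with 5.23, 9.58 and 6.28 FPKM in T3 livers, against 1.21, 2.56 and 2.28 FPKM in control livers (1.69 ± 0.36, adjusted p = 0.00821). It stood at 1562, 1567 and 2830.4 FPKM in T3 tails, against 2694, 4623 and 7628 FPKM in control tails (-1.57 ± 0.36, adjusted p = 0.00852). T3 and control tails overlapped for it. Another alpha skeletal muscle actin unigene had 10.5, 32.6 and 9.26 FPKM in T3 livers, against 19.9, 19.4 and 21.9 FPKM in control livers. Those liver groups overlap, so the liver rise was not common to skeletal actin unigenes. Synaptophysin-like 2, a protein of muscle membrane junctions, stood at under 5 FPKM in livers. The share of skeletal muscle markers in these tails is given above, and its part in the falls of actin and synaptophysin-like 2 was not tested. Clustered mitochondria protein homolog, which binds mRNAs of mitochondrial proteins, had 4, 4.96 and 7.07 FPKM in T3 livers, against 1.31, 1.62 and 1.96 FPKM in control livers (1.54 ± 0.27, adjusted p = 0.00213). It had 0.68, 0.78 and 0.91 FPKM in T3 tails, against 4.72, 9.56 and 8.7 FPKM in control tails (-2.54 ± 0.27, adjusted p = 4.22e-05). Villin-like, an actin-binding protein, rose by 1.62 in the liver and fell by 1.55 in the tail. It had 3.4 to 12.81 FPKM in livers and 10.36 to 62.56 FPKM in tails. Villin-like and the clustered mitochondria protein were thus expressed in both organs, unlike the others of this paragraph. The liver calls of the P450, actin, synaptophysin-like 2, villin-like and clustered mitochondria protein were lost without control livers 1 and 2.

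**Figure D3:**
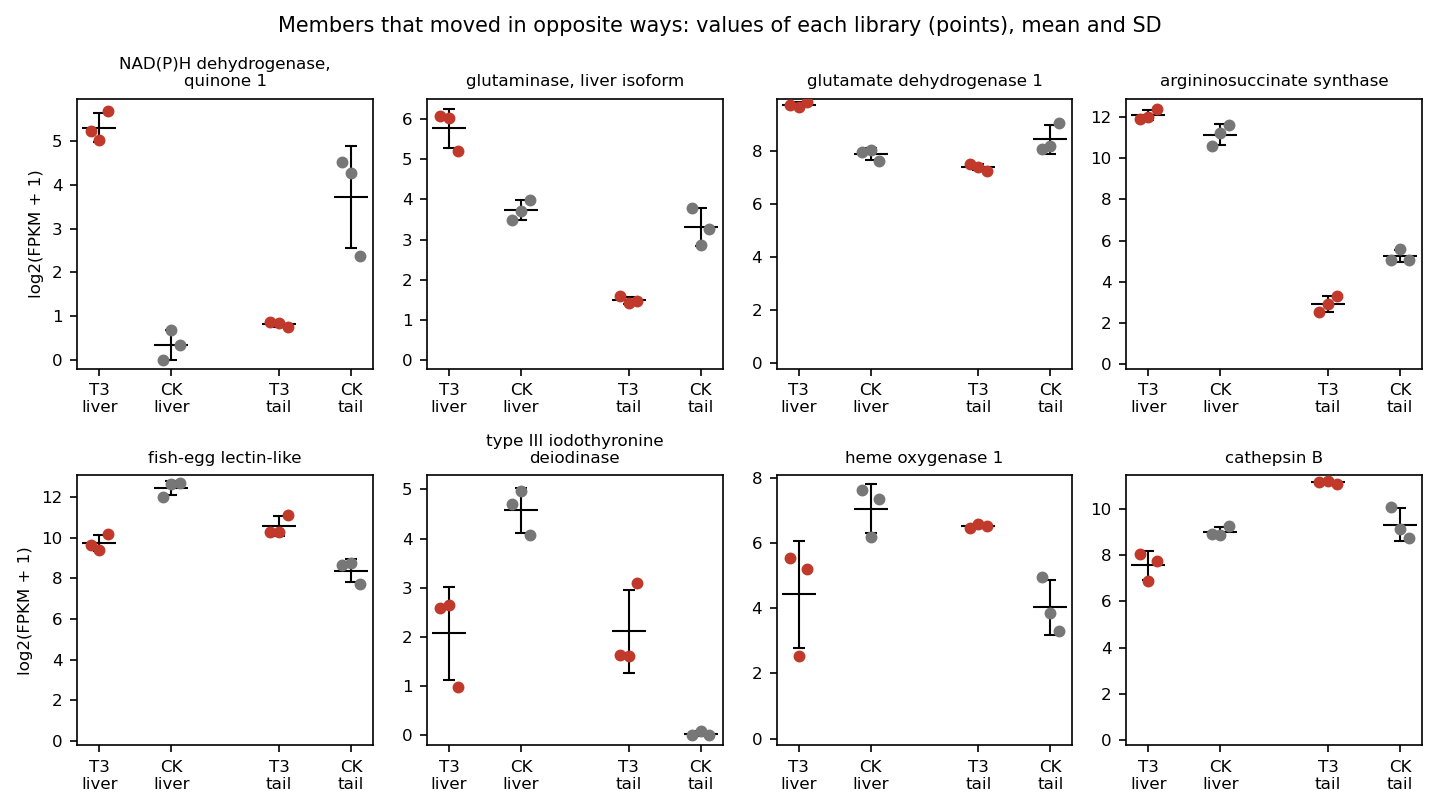
Value of each library, as log2(FPKM + 1), for 4 unigenes that rose in the liver and fell in the tail (upper row) and 4 that fell in the liver and rose in the tail (lower row), with T3 (red) left of the DMSO control CK (grey), and black bars for mean and SD (n = 3). The T3 points lie above the control points in the liver and below them in the tail in the upper row, and the other way round in the lower row.

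Mitochondrial genes moved apart between the organs. Of 41 tested nuclear subunits of the respiratory chain, which makes most cellular ATP, 7 rose in the liver and none fell, while 32 fell in the tail and none rose, with medians of 0.33 and -0.92. Opposite calls were made for 4, and the tissue contrast passed for 28. The share of skeletal muscle markers in the tails is given above. Its part in the tail falls of mitochondrial and glycolysis genes was not tested. NADH dehydrogenase 1 beta subcomplex subunit 9, of complex I, had 172, 149.5 and 179 FPKM in T3 livers, against 129, 128 and 136 FPKM in control livers (0.63 ± 0.17, adjusted p = 0.0289). It reached 173, 192 and 203 FPKM in T3 tails, against 307, 246 and 334 FPKM in control tails (-0.95 ± 0.17, adjusted p = 0.00207). The alpha subcomplex subunit 12 and the iron-sulfur protein 8 rose by 0.64 and 0.68 in the liver and fell by 0.99 and 0.71 in the tail. All 3 liver calls were lost without centring and without control livers 1 and 2. Without those 2 livers the list had 31 falls in the tail, no call in the liver and 4 passing contrasts, and without centring 23 falls and 2 rises in the tail, 1 rise and 1 fall in the liver, 1 unigene that fell in the liver and rose in the tail, and 13 passing contrasts.

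Of the 13 mitochondrially encoded unigenes 11 rose in the liver and 3 fell in the tail, with medians of 1.09 and -0.48 and a passing contrast for 11. Cytochrome c oxidase subunit I, the core of complex IV, had 18269, 25529 and 20055 FPKM in T3 livers, against 10229.9, 10758 and 9657 FPKM in control livers (1.34 ± 0.14, adjusted p = 4.11e-05). It reached 8347, 7861 and 10295 FPKM in T3 tails, against 8732, 9928 and 10969 FPKM in control tails (-0.48 ± 0.14, adjusted p = 0.0297). The tail groups overlap on the deposited scale, and the tail change was 0.43 with quantile normalization, the opposite sign. Cytochrome c oxidase subunit II and ATPase subunit 6 rose by 1.20 and 1.14 in the liver, and their tail changes of -0.60 and -0.57 were both 0.24 with quantile normalization. Their tail falls, like that of subunit I, were lost without centring, whereas 8 of the 13 still rose in the liver then. With quantile normalization 7 rose in the liver and 1 contrast passed, and without control livers 1 and 2 these were 6 and 7. The 3 unigenes share 1 assembly cluster, and the libraries were made from poly-A RNA.

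Mitochondrial ribosomal proteins had 11 rises and 1 fall among 67 unigenes in the liver and 26 falls in the tail. They had 26 passing contrasts, 2 opposite unigenes and 1 shared fall. Over all tested unigenes 6.65% rose in the liver, 10.7% fell in the tail and 7.47% passed the contrast. The medians of these proteins were 0.32 in the liver and -0.55 in the tail, but 0.03 and -0.23 without centring. 28S ribosomal protein S31 rose by 1.09 in the liver and fell by 0.81 in the tail (adjusted p = 0.00656 and adjusted p = 0.0224). In the absence of control livers 1 and 2 no contrast of the list passed, and without centring 5 did. The TCA cycle, which feeds the respiratory chain, had 5 rises among 16 unigenes in the liver and 8 falls in the tail, with 9 passing contrasts. Its opposite unigene, succinyl-CoA ligase subunit alpha, had 108, 117 and 135 FPKM in T3 livers, against 82.2, 85.6 and 93.3 FPKM in control livers (0.75 ± 0.18, adjusted p = 0.0154). It stood at 140.4, 158 and 158 FPKM in T3 tails, against 244, 182 and 234 FPKM in control tails (-0.84 ± 0.18, adjusted p = 0.00551). Manganese superoxide dismutase, the antioxidant enzyme of mitochondria, rose by 0.89 in the liver and fell by 1.00 in the tail (adjusted p = 0.0139 and adjusted p = 0.00507). The liver calls of the ligase and the dismutase were lost without centring and without control livers 1 and 2, and without those livers 2 contrasts of the TCA list passed.

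The 26 unigenes that fell in the liver and rose in the tail held a hormone enzyme, a lysosomal protease and a heme enzyme. Fish-egg lectin-like, a sugar-binding protein, had 809, 667 and 1163 FPKM in T3 livers, against 4159, 6355 and 6541 FPKM in control livers (-2.41 ± 0.31, adjusted p = 0.00022). It reached 1262, 1242 and 2243 FPKM in T3 tails, against 406, 434 and 208 FPKM in control tails (1.88 ± 0.31, adjusted p = 0.00136). Each control liver was above each control tail, and each T3 tail above each T3 liver. Type III iodothyronine deiodinase, which inactivates T3, had 5.02, 5.3 and 0.97 FPKM in T3 livers, against 24.9, 30.1 and 15.8 FPKM in control livers (-2.21 ± 0.46, adjusted p = 0.0072). It stood at 2.09, 2.06 and 7.54 FPKM in T3 tails, against 0, 0.06 and 0 FPKM in control tails (1.77 ± 0.46, adjusted p = 0.0165). Cathepsin B, a lysosomal cysteine protease, had 267, 116 and 213 FPKM in T3 livers, against 475, 471 and 616 FPKM in control livers (-1.17 ± 0.33, adjusted p = 0.0331). It had 2282, 2394 and 2153 FPKM in T3 tails, against 1094, 557 and 428 FPKM in control tails (1.51 ± 0.33, adjusted p = 0.00592). The groups of all 3 lay apart in both organs.

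Heme oxygenase 1, which breaks heme down to iron, biliverdin and carbon monoxide, had 45.5, 4.81 and 36.1 FPKM in T3 livers, against 197, 72.4 and 161 FPKM in control livers (-2.34 ± 0.65, adjusted p = 0.0316). It reached 87.4, 95.2 and 91.3 FPKM in T3 tails, against 29.9, 13.3 and 8.82 FPKM in control tails (2.18 ± 0.65, adjusted p = 0.0304). Monocarboxylate transporter 9 had 2.29, 2.96 and 3.61 FPKM in T3 livers, against 12.1, 7.67 and 15.1 FPKM in control livers (-1.35 ± 0.33, adjusted p = 0.0164). It reached 48.5, 28.8 and 71.7 FPKM in T3 tails, against 2.91, 2.27 and 1.64 FPKM in control tails (3.56 ± 0.33, adjusted p = 1.31e-05). Sulfotransferase 2B member 1, which sulfates steroids and sterols in mammals, had 5.67, 9.87 and 5.71 FPKM in T3 livers, against 61.7, 119 and 86.9 FPKM in control livers (-3.18 ± 0.32, adjusted p = 2.87e-05). It stood at 11.9, 11.8 and 9.05 FPKM in T3 tails, against 3.25, 4.87 and 1.69 FPKM in control tails (1.23 ± 0.32, adjusted p = 0.0172). In each of these T3 livers lay below control livers and T3 tails above control tails. The regulatory subunit 3C of protein phosphatase 1, which targets the phosphatase to glycogen, fell by 1.54 in the liver and rose by 2.19 in the tail (adjusted p = 0.0337 and adjusted p = 0.0035), and folliculin-interacting protein 2, of the nutrient-sensing pathway at the lysosome, fell by 1.86 and rose by 1.47 (adjusted p = 0.000197 and adjusted p = 0.00111). Phytanoyl-CoA hydroxylase-interacting protein-like fell by 2.06 and rose by 2.38, purine nucleoside phosphorylase-like, an enzyme of purine salvage, fell by 2.92 and rose by 1.16, endophilin B2, a membrane-bending protein, fell by 1.15 and rose by 1.18, and collagen alpha-1(XXVII) fell by 1.25 and rose by 1.15. Once control livers 1 and 2 were left out the liver calls of the deiodinase, cathepsin B, heme oxygenase 1, the transporter, subunit 3C, endophilin B2 and the collagen were lost, and the contrasts of the deiodinase and endophilin B2 with them.

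Lysosomal hydrolases, which digest macromolecules, did not move as one across organs. Among 52 tested unigenes 21 rose and 1 fell in the tail, 4 rose and 4 fell in the liver, 4 were shared rises and 2 opposite, and the contrast passed for 14, all lower in the liver. The 10 tested subunits of the vacuolar proton pump, which acidifies lysosomes, had medians of -0.70 in the liver and 0.39 in the tail, with 3 falls in the liver, 1 fall in the tail and 5 passing contrasts, but none was called in opposite directions. Without centring 8 hydrolases and 3 pump subunits fell in the liver and rose in the tail. After control livers 1 and 2 were left out, no lysosomal hydrolase and no pump subunit was called in the liver, 19 hydrolases rose in the tail, and the contrast passed for 4 hydrolases and 1 pump subunit.

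The opposite classes differed in which organ held the transcript to begin with. In controls the median level of the 101 unigenes differed between liver and tail by -1.025 on the log2 scale, and 25 of the 101 were higher in the liver. For the 26 unigenes the difference was 1.56, and 24 of 26 were higher in the liver. Over all tested unigenes the median was 0.00, with 7134 of 14251 higher in the liver. After T3 the liver minus tail medians were 0.24 and -1.65. These levels share their control samples with the changes that chose the classes, so they are a description with no test.

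Beside quinone dehydrogenase 1, the widest contrasts among named unigenes included several called in 1 organ alone. The leaders among them were named because this contrast had passed, so its size is a description. Keratin 14, a type I keratin of skin, had 3.19, 1.5 and 2.01 FPKM in T3 tails, against 459.8, 1913 and 1054 FPKM in control tails (-8.59 ± 0.46, adjusted p = 1.36e-07), while no liver passed 3.6 FPKM. Larval type I keratin, a filament protein of tadpole skin, fell by 5.98 in the tail, with 59.65, 68.9 and 60.1 FPKM in T3 tails, against 2652, 5000 and 2535 FPKM in control tails. The share of epidermis markers, a list of 30 unigenes, was 0.284% to 0.474% in T3 tails and 0.104% to 0.121% in control tails (exact permutation p = 0.1). The wording of that list takes in neither of these keratins, so its share is not that of all skin transcripts, and its part in these falls was not tested. Keratin, type I cytoskeletal 12 and keratin, type II cytoskeletal 5 carried much of that share. The former had 1279, 1310 and 1377 FPKM in T3 tails, against 6.36, 5.86 and 3.39 FPKM in control tails. The latter had 309, 1027 and 1383 FPKM in T3 tails, against 0.33, 1.59 and 0.55 FPKM in control tails. By contrast, 1 unigene of keratin, type I cytoskeletal 19 had 123, 149.7 and 220.2 FPKM in T3 tails, against 485, 513 and 737 FPKM in control tails. Of the 7 epidermis markers tested in both organs 4 fell in the tail and none rose, with a median of -0.92. Lipocalin, of a family of carriers of small lipophilic molecules, fell by 6.07 there, and alcohol dehydrogenase 4 had a tail change of -5.15 (adjusted p = 8.31e-07). Hylaserpin S1, a serpin-type protein, had 14516, 14742 and 10478 FPKM in T3 livers, against 772, 1007 and 406 FPKM in control livers (4.55 ± 0.45, adjusted p = 2.26e-05), with 10.6 FPKM or less in any tail, and a further unigene of the putative methyltransferase rose by 6.20 in the liver. In the other direction protein-glutamine gamma-glutamyltransferase E, which cross-links proteins of the adult epidermis in mammals, had 459, 434 and 491 FPKM in T3 tails, against 4.83, 4.58 and 3.29 FPKM in control tails (6.16 ± 0.25, adjusted p = 1.88e-08), with 2.38 FPKM or less in any liver. A cytochrome P450 2C8 unigene rose by 4.20 in the tail, and twisted gastrulation homolog 2, which binds bone morphogenetic proteins, fell by 3.88 in the liver.

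The other lists are read against the shared rises and shared falls among all tested unigenes, 2.08% and 2.07%. Ubiquitin ligases had 4 shared falls among 208 unigenes, solute carriers outside amino acid transport 7 shared rises, 2 shared falls and 1 opposite unigene among 102, antioxidant enzymes 3 shared falls and 1 opposite among 25, and iron and heme genes 1 shared fall and 1 opposite among 29. Endoplasmic reticulum folding, stress transcription factors, sterol and sphingolipid metabolism, chromatin enzymes and mRNA splicing had 1 shared rise each among 24, 17, 32, 89 and 85 unigenes, and chaperones and aminoacyl-tRNA synthetases 1 shared fall each among 26 and 17. Autophagy genes, 22 unigenes, and the DNA replication and cell cycle list, 53, had none, nor had metalloproteinases, 6, nuclear receptors, 15, or complement and coagulation, 37. Without control livers 1 and 2 the ubiquitin ligases had 7 shared falls, and none of the other lists of this paragraph had a member of any class. In the liver 5 of the 37 complement and coagulation unigenes rose and 6 fell, and in the tail 3 rose and 6 fell. Over all tested unigenes 6.65% rose and 5.31% fell in the liver, and 8.58% rose and 10.7% fell in the tail. Calls so few are a description of this list.

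**Figure D4:**
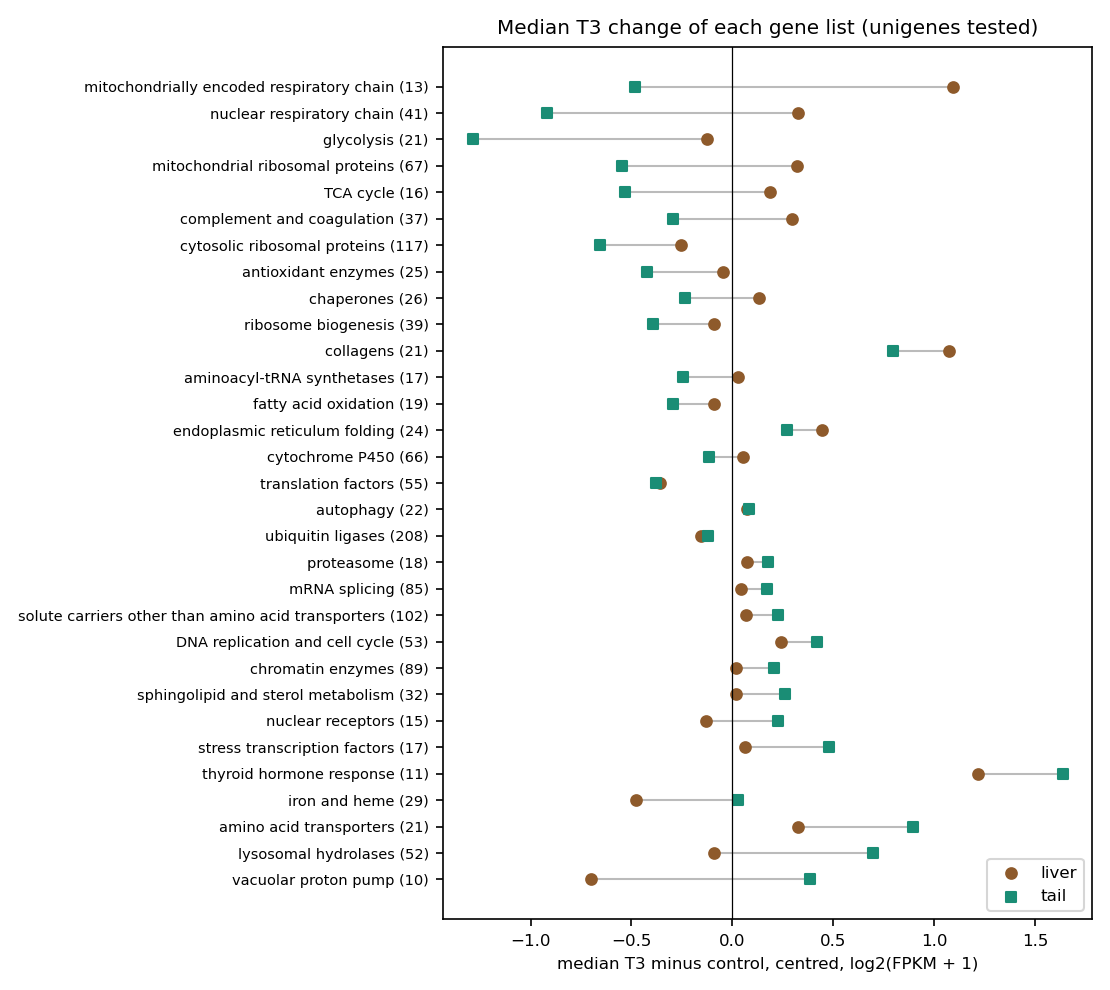
Median centred T3 change, T3 minus the DMSO control, of each list with 10 or more tested unigenes (cell type markers and lists written after values were seen are not drawn), in log2(FPKM + 1) units, for liver (circles) and tail (squares), with the number of unigenes in brackets. Respiratory chain, mitochondrial ribosomal protein and TCA cycle lists lie above 0 in the liver and below 0 in the tail. So do others, among them complement and coagulation, chaperones and aminoacyl-tRNA synthetases. Lysosomal hydrolases and the vacuolar proton pump lie the other way round, as do nuclear receptors and iron and heme. The thyroid hormone response and collagens lie above 0 in both, as do others, such as amino acid transporters and endoplasmic reticulum folding. Without centring the liver medians were -0.10 for the TCA cycle, 0.04 for the nuclear respiratory chain and 0.03 for mitochondrial ribosomal proteins. With quantile normalization the mitochondrially encoded median in the tail was 0.27.

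**Figure D5:**
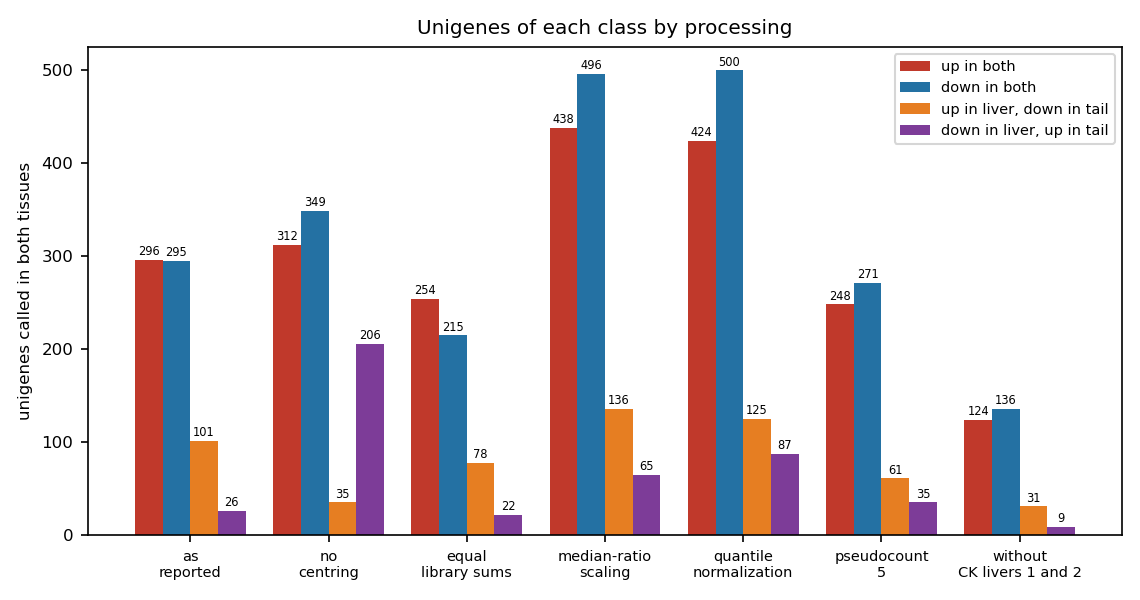
Number of unigenes called in both tissues, by class, under 7 ways of processing. The counts of shared rises and falls exceed both opposite counts in every one, while the order of the opposite classes is reversed without centring (35 and 206, against 101 and 26).

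Leaving out 1 library at a time gave 208 to 302 shared rises, 131 to 318 shared falls, 59 to 126 unigenes up in the liver and down in the tail and 16 to 33 the reverse. Shared falls numbered 131 without control liver 3, 185 without control liver 2, and 175 and 186 without T3 tails 1 and 2. The 101 became 65, 61 and 63 without control livers 1, 2 and 3, and 64 and 59 without T3 tails 1 and 2. The 26 became 16 without control liver 1 or 3 and 17, 16 and 16 without T3 tails 1, 2 and 3. Liver calls, 1704 in full, numbered 1133, 1060 and 959 without control livers 1, 2 and 3, tail calls, 2744 in full, 1704 and 1667 without T3 tails 1 and 2, and contrasts 692 without control liver 1 and 649 and 673 without T3 tails 1 and 2. In all 12 runs 139 of the 296, 70 of the 295, 29 of the 101 and 5 of the 26 kept their class. Every unigene of the 4 classes kept both signs in each run. Leaving out 1 library can hardly turn changes large enough to be called, so these kept signs support nothing.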

How the data were processed

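RNA from livers and tails was sequenced as poly-A libraries. Per the labels and the methods of the study, the authors assembled the cleaned reads de novo with Trinity, annotated unigenes against the NR protein database, and deposited FPKM values from Bowtie and RSEM in 1 table of 12 columns, all of which were used. The sources used here give no tool versions, and read depth is unknown. FPKM scales each library to its own total, so a few abundant transcripts shift all others. Here log2(FPKM + 1) was fitted in limma 3.58.1 (R 4.3.3) with 1 mean for each of the 4 groups and an intensity-dependent trend, and each tissue's change was set against its median. P-values were Benjamini-Hochberg adjusted over the 14251 tested unigenes, with a threshold of 0.05. A unigene is of a class if called in both tissues. Changes are centred log2 differences of log2(FPKM + 1), T3 minus control, given ± SE, which understates changes of low unigenes. The tissue contrast is liver minus tail. Marker shares were compared by two-sided exact permutation tests. The rule for named genes took 119 unigenes, not all of them printed: up to 12 leaders per class by the smaller of both changes, list members of highest mean FPKM, the thyroid hormone list and 6 leaders of the contrast in each direction, 1 per description. The 32 gene lists and 7 marker lists were matched by words in descriptions, as were 4 lists written after values were seen. Members and lists were chosen with earlier results of these data known. The fit was tested on simulated data. Alternatives covered filter, pseudocount, scaling, variance estimate, threshold, replicate block and left-out libraries.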

Additional observations from a re-analysis of the deposited data

Results flagged for a closer look

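The T3 change differed between liver and tail for 57 named unigenes by limma's test of the contrast, liver minus tail, on the centred log2 scale, at an adjusted p under 0.05. For those called in opposite directions the calls that chose them fix the sign of this difference, so their values are a description.

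Among unigenes that rose in both organs the difference was 4.86 for adult beta globin, 5.09 for Hemoglobin subunit alpha-C, 4.57 for Hemoglobin subunit alpha-B, 5.27 for the fatty acyl-CoA hydrolase, 2.05 for nicotinamide N-methyltransferase-like and -2.12 for collagen alpha-1(XII), and among those that fell in both it was -1.65 for methylenetetrahydrofolate dehydrogenase 2.

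Among unigenes that rose in the liver and fell in the tail it was 8.5 for NAD(P)H dehydrogenase quinone 1, 4.44 for glutaminase, 4.65 for glycine dehydrogenase, 3.54 for glutamate dehydrogenase 1, 3.86 for argininosuccinate synthase, 3.7 for aspartate aminotransferase 1, 1.96 for its mitochondrial counterpart, 3.61 for phosphoenolpyruvate carboxykinase 2 and 3.66 for the Rh type B-A transporter. It was 3.75 for synaptophysin-like 2, 3.42 for cytochrome P450 2K1-like, 3.27 for the skeletal actin-like unigene, 3.17 for villin-like, 4.08 for the clustered mitochondria protein, 3.94 for beta-microseminoprotein-like and 1.67 for solute carrier family 3 member 1, the heavy chain of an amino acid transporter. T3 and control livers overlapped for this carrier. For mitochondrial genes it was 1.69 and 1.9 for 28S ribosomal proteins S5 and S31, 1.82 and 1.79 for cytochrome c oxidase subunits I and II, 1.72 for ATPase subunit 6, 1.58, 1.63 and 1.39 for the complex I subunits beta 9, alpha 12 and iron-sulfur protein 8, 1.58 for succinyl-CoA ligase and 1.89 for manganese superoxide dismutase.

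Among unigenes that fell in the liver and rose in the tail it was -4.52 for heme oxygenase 1, -4.44 for the phytanoyl-CoA hydroxylase-interacting protein-like unigene, -4.29 for fish-egg lectin-like, -3.98 for type III iodothyronine deiodinase, -3.73 for protein phosphatase 1 subunit 3C and -3.33 for folliculin-interacting protein 2. It was -4.91 for monocarboxylate transporter 9, -4.41 for sulfotransferase 2B member 1, -2.68 for cathepsin B, -4.08 for purine nucleoside phosphorylase-like, -2.33 for endophilin B2 and -2.4 for collagen alpha-1(XXVII).

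Among unigenes called in 1 organ or in neither class it was 8.28 for keratin 14, 6.31 for larval type I keratin, 6.07 for the putative methyltransferase, 6.02 for lipocalin, 5.64 for hylaserpin S1 and 5.29 for alcohol dehydrogenase 4. In the other direction it was -5.98 for protein-glutamine gamma-glutamyltransferase E, -5.21 for Hemoglobin subunit alpha-3, -4.89 for matrix metalloproteinase-9TH, -4.75 for twisted gastrulation homolog 2, -4.62 for cytochrome P450 2C8 and -1.18 for nuclear receptor corepressor 1.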

How the results depend on the processing

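Depth is unknown and limits low unigenes most, and with 3 libraries a group each class rests on few samples. Unigenes still tested kept their signs under all alternatives except quantile normalization, where 2 shared falls and 4 unigenes up in the liver and down in the tail did not. None moved to another class. Changes large enough to be called are hardly turned by such alternatives, so the kept signs and the lack of such moves support nothing. Shared rises numbered 194 without moderation, 128 at an adjusted p of 0.01 with a change of at least 1, and 124 without control livers 1 and 2. Shared falls were 192 with no filter, 496 with median-ratio scaling, 500 with quantile normalization, 183 with a separate spread for each tissue, 195 without moderation, 57 at the stricter threshold and 136 without those livers. Unigenes up in the liver and down in the tail were 28 with no filter, 61 with a pseudocount of 5, 35 without centring, 64 with a separate spread, 22 at the stricter threshold and 31 without those livers. The reverse class had 16 with at least 1 FPKM in all 12 libraries, 206 without centring, 65 with median-ratio scaling, 87 with quantile normalization, 11 without moderation, 5 at the stricter threshold and 9 without those livers. Liver calls were 2816 without centring, 2582 with quantile normalization, 1129 without moderation, 672 at the stricter threshold and 533 without those livers. Tail calls were 1779 at 5 FPKM or more and 1116 at the stricter threshold. Contrasts were 1897 with no filter, 3046 without centring, 1616 with median-ratio scaling, 1654 with quantile normalization, 438 at the stricter threshold and 296 without those livers. The cause of these shifts was not tested.

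Leaving out 1 library gave 208 to 302 shared rises, 131 to 318 shared falls, 59 to 126 and 16 to 33 opposite unigenes, 959 to 2022 liver calls, 1667 to 3164 tail calls and 649 to 1143 contrasts. With quantile normalization the tail change reversed to 0.023 for 40S ribosomal protein S16, 0.010 for 60S ribosomal protein L12-like, 0.429 and 0.241 for cytochrome c oxidase subunits I and II and 0.242 for ATPase subunit 6. Without the 50 most abundant unigenes the T3 minus control share in the liver reversed to 0.000137 percentage points for skeletal muscle and 0.258 for red blood cell markers.

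The labels do not say that a replicate number joins samples, and same-numbered T3 and control libraries deviated together at r = 0.13 to 0.212 in the liver but 0.0234 to 0.0721 in the tail. Same-numbered liver and tail libraries did so at 0.13 to 0.269 in controls and at 0.124, -0.0521 and 0.219 under T3. With the number as a replicate block the classes had 322, 319, 114 and 30 unigenes. With treatment and number together as a block, 654 contrasts were higher and 432 lower in the liver, and 874 of them were also called without it. Among named unigenes the block ended the liver calls of 28S ribosomal protein S5 (adjusted p = 0.0628) and solute carrier family 3 member 1 (adjusted p = 0.0505), and the second block ended the contrast of nuclear receptor corepressor 1 (adjusted p = 0.0719).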
